A study of Mus musculus with 64 samples.

Results

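The genes described here are the chemokine ligand and receptor genes of mouse fat. They were taken as every gene whose symbol begins with Ccl, Ccr, Cxcl, Cxcr, Cx3cl, Cx3cr, Xcl or Xcr and goes on with a digit. The rule found 57 of 24328 genes, of which 38 encode ligands and 19 encode receptors. A member was called measured where it had 10 or more counts in at least 4 of the 64 libraries, which held for 24 ligands and 14 receptors. The other 19 members stayed below that minimum, and 5 of them (Ccl19, Ccl21a, Ccl21b, Ccl21c and Ccl27b) were at 0 in every library. These 5 have near-identical copies or relatives, and 2131015 to 12476913 reads per library stood in the deposited tally of reads without a unique place. The part of that tally in the zeros was not tested. Since the rule goes by symbol, the chemokine genes Pf4 (CXCL4) and Ppbp (CXCL7) and the atypical receptors stand outside it and were followed as a list of their own.

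Chemokines are small secreted proteins that bind heparan sulfate on cells and matrix and draw leukocytes along a gradient. Their receptors are G-protein-coupled receptors of the leukocyte surface, and 1 receptor often binds several ligands: CCR2 takes CCL2, CCL7 and CCL12, CCR1 takes CCL3 and CCL5, and CXCR3 takes the interferon-inducible CXCL9, CXCL10 and CXCL11. In fat tissue, CCL2 and CCR2 are known for the recruitment of monocytes that become macrophages in obese mice. CXCL12 and its receptor CXCR4 keep leukocytes and progenitors in place, and CCL11 and CCL24 draw eosinophils through CCR3.

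Total RNA of 3 fat depots was sequenced: epididymal fat (eWAT, visceral), inguinal fat (iWAT, subcutaneous) and brown fat (BAT). Summed adipocyte markers were at 3020 CPM or more in every library. The mice were 129S1/SvlmJ (129 below), C57BL/6J (B6) or the B6/129S1 F1 hybrid (F1), fed a high-fat diet (HFD) or a low-fat diet (LFD), in part with rosiglitazone (rosi), an agonist of the nuclear receptor PPAR gamma. Groups from 129 were eWAT on HFD control and on LFD control, and iWAT on HFD with rosi and on HFD control (n = 4 each). B6 eWAT came as a set on HFD with rosi, HFD control and LFD control (n = 4 each, called the second set) and as a set on HFD and on LFD with no agent named (n = 5 each, the first set). B6 BAT on HFD had no agent named, and B6 iWAT was sampled on HFD with rosi, HFD control and LFD control (n = 4 each). F1 iWAT was sampled on LFD with rosi and on LFD control (n = 5 each). The labels used here give no age, sex, dose or duration. Nothing in them tells whether replicates came from different mice, so a p-value speaks for the spread among samples, part of which may be technical. The B6 iWAT HFD controls serve in 4 comparisons and the B6 eWAT HFD controls in 3, besides the tests of strain differences in an effect, and those comparisons are therefore not independent.

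Library totals ran from 3099737 to 9551251 counts, and the libraries fell into 2 ranges of the share of uniquely placed reads assigned to no gene. That share was 64.3 to 70.6% in the first B6 set and the F1 groups, which also had 0.195 to 0.269% of reads called ambiguous, against 29.3 to 49.1% and 0.672 to 1.23% in all other libraries. No test below mixes the 2 kinds of library, but levels and fold changes set side by side across them may differ with counting, which was not tested. Ucp1, the uncoupling protein that defines brown fat, was at 5120 CPM or more in the 4 BAT libraries and at 4240 CPM or less in all others, where CPM is the read count scaled to the size of its library. Every pair of replicates differed by more than sampling noise. Control replicate 1 of F1 iWAT stood apart: its summed markers of B cells and lymph node were at 558 CPM, against 3.92 to 7 CPM in the other 4 F1 controls. In that library Ccr7, the receptor that guides lymphocytes into lymph nodes, was at 36.9 CPM, Cxcr5 at 22.6 CPM and Cxcl13 at 23.8 CPM, so results on F1 fat are given with and without it. B6 iWAT rosi replicate 1 also stood apart, with the highest summed macrophage markers of its comparison (4020 CPM). The members called between rosi and control in B6 iWAT are also given without it.

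The promoters of 4 members are printed because these genes carry the main contrast of the data. Ccl6 and Ccl9 are neighbours on chromosome 11 and were the most abundant ligands of B6 epididymal fat on HFD, while Cxcl9 and Cxcl10, on chromosome 5, are interferon-inducible and were lower in the same samples. Each sequence is the 250 bases before the gene's start, 5′ to 3′ on the gene's strand (minus for all 4), from RefSeq on GRCm38.p6. Capitals mark 3 motifs searched on both strands: the interferon-stimulated response element (GAAA, any 2 bases, GAAA), the NF-kappa-B site (GGGA, any 2 bases, T, any 1 base, CC) and the ETS core (GGAAGT), the kind of site that PU.1 of macrophages shares with other ETS factors. The windows are chr11:83593088-83593337 for Ccl6, chr11:83578637-83578886 for Ccl9, chr5:92348890-92349139 for Cxcl10 and chr5:92328080-92328329 for Cxcl9.
Ccl6: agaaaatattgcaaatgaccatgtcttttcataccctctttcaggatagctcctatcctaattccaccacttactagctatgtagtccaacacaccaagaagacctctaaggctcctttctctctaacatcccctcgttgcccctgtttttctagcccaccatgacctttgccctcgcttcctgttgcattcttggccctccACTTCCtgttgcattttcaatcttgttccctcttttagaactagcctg
Ccl9: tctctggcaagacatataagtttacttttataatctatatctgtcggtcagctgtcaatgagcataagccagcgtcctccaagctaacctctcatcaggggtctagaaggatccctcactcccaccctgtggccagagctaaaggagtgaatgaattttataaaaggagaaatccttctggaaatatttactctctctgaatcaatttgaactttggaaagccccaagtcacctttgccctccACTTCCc
Cxcl10: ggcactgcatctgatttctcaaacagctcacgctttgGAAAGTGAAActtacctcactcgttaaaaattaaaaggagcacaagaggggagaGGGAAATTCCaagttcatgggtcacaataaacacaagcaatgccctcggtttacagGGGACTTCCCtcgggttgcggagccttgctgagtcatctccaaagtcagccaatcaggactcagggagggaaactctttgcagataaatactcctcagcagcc
Cxcl9: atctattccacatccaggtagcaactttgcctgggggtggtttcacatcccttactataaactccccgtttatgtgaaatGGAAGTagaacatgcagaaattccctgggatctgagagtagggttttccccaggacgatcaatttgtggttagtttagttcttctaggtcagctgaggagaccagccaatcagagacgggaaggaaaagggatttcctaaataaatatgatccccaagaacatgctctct

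Cxcl10 held 1 match to the interferon element, which began 213 bases before the gene's start, and 2 matches to the NF-kappa-B site, at 159 and 103 bases before it. An ETS core of Cxcl10 at 100 bases lay inside the second of these NF-kappa-B matches. Cxcl9, Ccl6 and Ccl9 held 1 ETS core each, at 170, 48 and 7 bases before the start. Among the 26 measured members with a promoter in the table, 2 held the interferon element (Cxcl10 and Cxcl14), 4 the NF-kappa-B site and 11 the ETS core. Of all 32851 promoters of this length, 2.98% held the interferon element, 3.33% the NF-kappa-B site and 19.7% the ETS core. These are matches of letters and say nothing of binding. Many members lie next to each other in the genome: Ccl2, Ccl7, Ccl11, Ccl12, Ccl8 and Ccl1 form a run of 6 members on chromosome 11, and Ccl5, Ccl9, Ccl6, Ccl3 and Ccl4 a run of 5 on the same chromosome.

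Of the measured members, 9 overlap another protein-coding gene on the opposite strand, which matters because the library kit named in the labels does not mark strand. Cxcl10 and Cxcl11 lie wholly within Art3, which encodes an ADP-ribosyltransferase, and Cxcr6 lies wholly within Fyco1. Of the exon bases of Cxcl10, 5.91% lie in exons of Art3, and of those of Cxcl11, 0 do. Ccr10 has 33.8% of its span within Cntnap1 with no shared exon base. Reads of Art3 and Cntnap1 that fall on Cxcl10, Cxcl11 or Ccr10, those of unspliced RNA included, therefore cannot be told apart from theirs, and the values of these partner genes, picked after the members' values were seen, are given beside them. Cxcl9 does not overlap Art3.

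Compared per length, as mean CPM per kilobase of exon, the leading ligand differed between groups. Ccl6, known as a ligand of CCR1, stood first in 9 of the 15 groups, Ccl11 in 4 and Cxcl14, a ligand of epithelia and adipocytes, in 2. In B6 eWAT on HFD of the first set, Ccl6 stood first of the ligands at 339 CPM per kilobase, Ccl9 second at 207 and Ccl11 next at 64.0. In B6 eWAT on LFD of that set, Ccl11 stood first at 50.4 and Ccl6 second at 41.9 CPM per kilobase. Inguinal fat of 129 had another order, with Cxcl14 first at 48.0 CPM per kilobase on rosi and 46.3 in controls, just above Ccl6 in controls (44.9). Of the receptors, Cxcr4 stood first in every white fat group except F1 iWAT with rosi, at 19.9 CPM per kilobase in B6 eWAT on HFD and 6.58 on LFD. Ccr10 stood first in BAT (3.93 CPM per kilobase) and in F1 iWAT with rosi (2.44), with the limit by Cntnap1 given above.

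**Figure D1:**
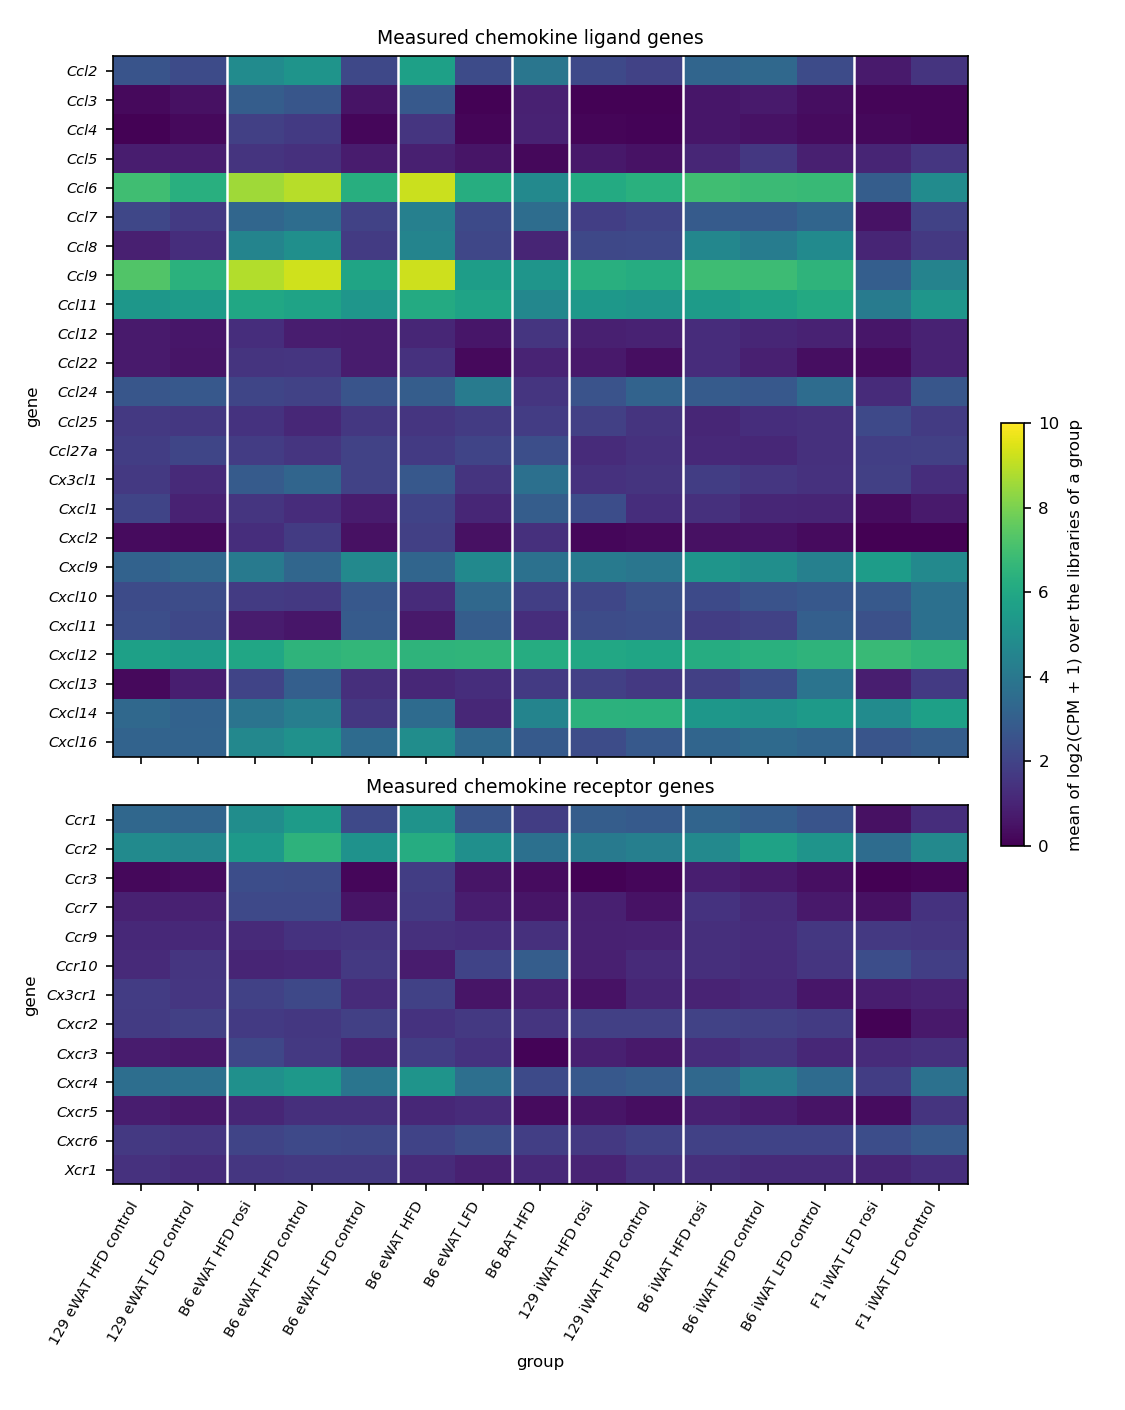
Mean of log2(CPM + 1) over the libraries of each of the 15 groups, for the 24 measured ligand genes (upper panel) and 13 of the 14 measured receptor genes (lower panel). The brightest cells are Ccl6 and Ccl9 in the B6 epididymal groups on HFD, and a colour compares a gene across groups, not genes with each other, since length is not taken into account.

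High-fat feeding of B6 mice went with more RNA of most chemokine genes tested in epididymal fat and with less of the CXCR3 ligands. In the first set, whose libraries shared 1 lane, 15 of the 22 members tested were higher on HFD and 4 were lower at an adjusted p under 0.05 (quasi-likelihood F test of edgeR with Benjamini-Hochberg adjustment over all genes tested, used throughout unless another tool is named). Of all genes tested, 58% passed in this comparison (29.5% higher and 28.5% lower). The median log2 fold change was 1.59 over the members tested and 0 over all genes. Some members passed the filter on low counts only through the diet on which they were high. Ccl3 reached at most 0.24 CPM and Cxcl14 2.28 CPM on LFD, and Cxcl11 1.37 CPM and Cxcl10 2.2 CPM on HFD. The direction of such members was largely fixed in advance, and the counts and medians include them. The summed measured ligands came to 1590 ± 355 CPM on HFD and 364 ± 28.9 CPM on LFD (SD, n = 5 each), and the summed receptors to 216 ± 15.5 CPM on HFD and 71 ± 7.22 CPM on LFD. In the second set, 16 members of 29 tested were higher on HFD and 4 lower, where 50% of all genes passed (25.7% higher and 24.3% lower), with a median of 1.3 over the members and −0.02 over all genes. These counts too include members that passed the filter through 1 diet alone: Ccl3 and Ccr3 reached at most 0.567 CPM and Ccr7 0.829 CPM on LFD. The second set had its HFD and LFD libraries in different runs, so run and diet cannot be told apart there, while the first set gives the same comparison within 1 lane.

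Both sets called 16 members in the same direction, 13 higher and 3 lower, which is 84.2% of the 19 calls of the first set and 80.0% of the 20 of the second. They share no library, and of 21 members tested in both, 0 were called in opposite directions. In bulk tissue, more cells of a type and more RNA per cell cannot be told apart. Macrophage markers moved with these results: 16 of 18 were higher on HFD and 1 lower in each set, their summed level was 9190 to 20900 CPM on HFD and 1440 to 1970 CPM on LFD in the first set, and 6760 to 23600 CPM on HFD and 1100 to 2230 CPM on LFD in the second. No macrophage marker was at 0 in any library, and summed adipocyte markers were at 6560 to 18800 CPM on HFD and 29300 to 35200 CPM on LFD in the first set. Of the fibroblast and progenitor markers 5 of 9 were higher and 1 lower in the first set, and of the endothelial ones 0 of 8 were higher and 7 lower. The part of these cells in the results was not tested.

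Ccl2, the chief monocyte attractant of the CCR2 axis, was at 68.6, 50.9, 51.9, 29.6 and 63.6 CPM in the first set on HFD, against 3.6, 2.54, 7.13, 1.85 and 6.08 CPM on LFD. It was at 25.9, 47.9, 30.3 and 40.5 CPM in the second set on HFD, against 6.51, 1.11, 6.77 and 2.27 CPM on LFD. The lowest HFD library lay above the highest LFD library in both sets, and the log2 fold change was 3.65 ± 0.30 (SE; adjusted p = 6.7e-07) in the first and 2.95 ± 0.41 (adjusted p = 0.00062) in the second. Ccl7, which binds CCR2 and CCR3, reached 25.1, 24.7, 24.7, 14 and 13.3 CPM in the first set on HFD, against 5.04, 3.81, 4.28, 2.38 and 3.7 CPM on LFD, a log2 change of 2.39 ± 0.25 (adjusted p = 4.7e-06). Ccl8, a ligand that in mice binds CCR8, was at 35.5, 24, 23.3, 21.6 and 11 CPM on HFD and at 4.32, 3.05, 7.42, 1.85 and 2.12 CPM on LFD in the first set. Ccl8 of the second set was at 26.3, 33.4, 36.1 and 27.6 CPM on HFD and at 2.7, 1.66, 3.9 and 1.7 CPM on LFD. Groups did not overlap for Ccl7 or Ccl8 in either set, and Ccl8 rose by 2.63 ± 0.36 (adjusted p = 4.2e-05) in the first set and 3.47 ± 0.24 (adjusted p = 0.00013) in the second, on the log2 scale. Their neighbour Ccl11 moved little: it was at 78.3, 72.4, 68.1, 59.7 and 67.9 CPM on HFD and 56.6, 46.9, 57, 55.2 and 56.9 CPM on LFD in the first set. That is a log2 rise of 0.34 ± 0.09 (adjusted p = 0.0062), and in the second set the value was 0.38 with an adjusted p of 0.33.

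Ccl6 and Ccl9, ligands of CCR1 made by macrophages and other myeloid cells, had the highest CPM of any member on HFD. Ccl9 was at 887, 491, 420, 605 and 745 CPM in the first set on HFD, against 46.8, 42.1, 61.3, 41.2 and 44.7 CPM on LFD. Ccl9 of the second set was at 411, 754, 810 and 573 CPM on HFD, against 69.6, 37.9, 92.4 and 38.9 CPM on LFD. Every HFD library lay above every LFD library, with log2 changes of 3.73 ± 0.21 (adjusted p = 6.9e-08) and 3.28 ± 0.34 (adjusted p = 0.00023). Ccl6 was at 766, 459, 402, 622 and 793 CPM on HFD and at 69.1, 74.6, 104, 70.6 and 57.9 CPM on LFD in the first set, a log2 change of 3.01 ± 0.22 (adjusted p = 2.3e-07). Ccl6 of the second set was at 261, 655, 716 and 472 CPM on HFD and at 77.5, 58.9, 114 and 65.5 CPM on LFD, a log2 change of 2.60 ± 0.33 (adjusted p = 0.00043). Ccl3 (MIP-1 alpha), which lies beside them and binds CCR1, was almost without reads on LFD. It was at 9.9, 2.97, 3.29, 7.13 and 9.22 CPM on HFD and at 0.24, 0, 0, 0 and 0 CPM on LFD in the first set, or 152 counts on HFD against 1 on LFD. The ratio of these counts, scaled by library size, was 132 with a 95% counting interval of 23.4 to 5260 (adjusted p = 1e-05), and the second set gave a log2 rise of 3.57 ± 0.64 (adjusted p = 0.0019). Ccl3 has 49.2% of its span within Ccl4 on the other strand, with no shared exon base. Reads of unspliced Ccl4 RNA that fall on Ccl3 cannot be told apart from its own.

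**Figure D2:**
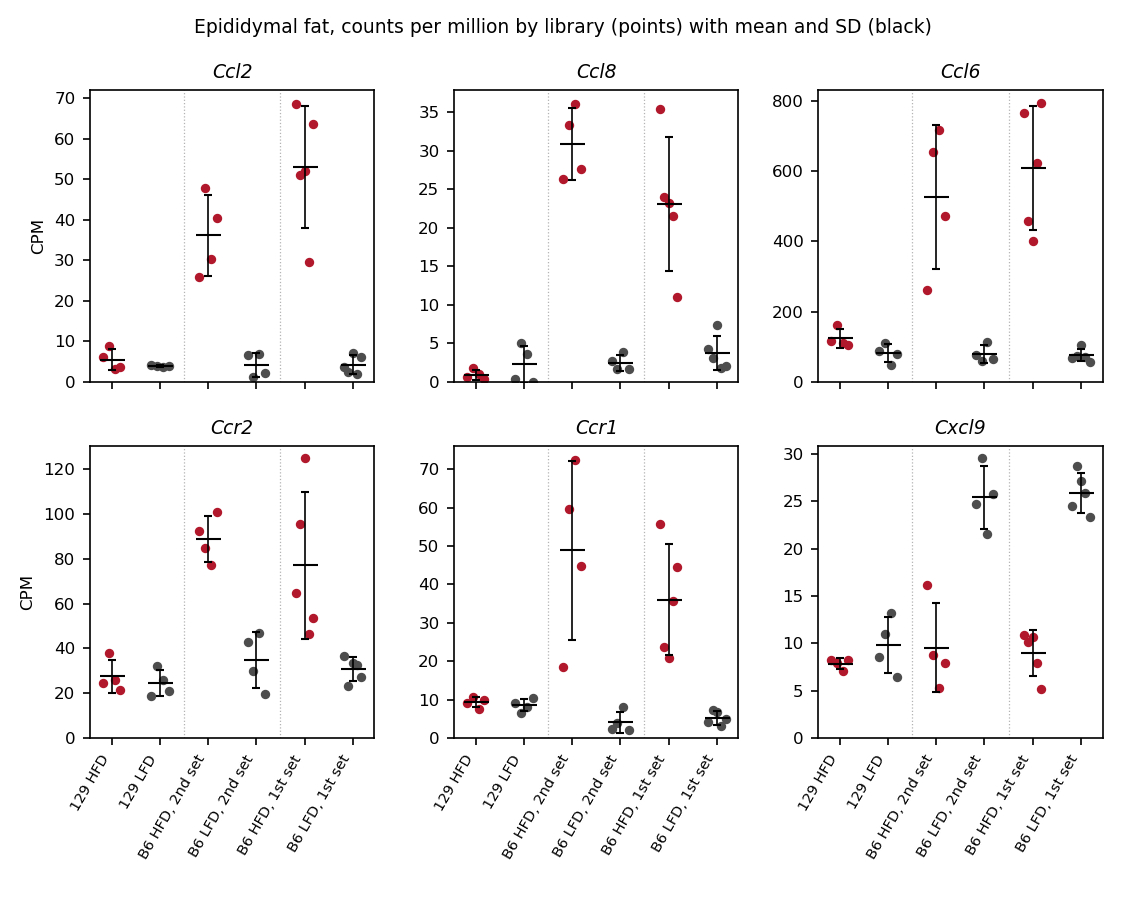
CPM of 6 members in every epididymal library of 129 and of both B6 sets (red, HFD; grey, LFD; black, mean and SD; n = 4 per group, n = 5 in the first B6 set). In both B6 sets the HFD libraries of Ccl2, Ccl8, Ccl6, Ccr2 and Ccr1 lie above all LFD libraries and those of Cxcl9 below them, while the 129 groups overlap for each of the 6 genes.

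The receptors of these ligands rose as well. Ccr1, a receptor of monocytes and other myeloid cells, was at 55.7, 23.7, 20.9, 35.6 and 44.5 CPM on HFD and at 4.08, 7.36, 6.85, 3.17 and 5.03 CPM on LFD in the first set, a log2 change of 2.78 ± 0.31 (adjusted p = 7.3e-06). The second set averaged 48.9 ± 23.3 CPM on HFD and 4.1 ± 2.76 CPM on LFD (3.43 ± 0.52, adjusted p = 0.00083), and the groups did not overlap in either set. Ccr2, which marks monocytes newly drawn from blood, had a smaller fold change. It was at 64.7, 95.7, 125, 46.5 and 53.7 CPM on HFD and at 36.5, 23.3, 33.7, 32.8 and 27.2 CPM on LFD, a log2 change of 1.31 ± 0.24 (adjusted p = 0.00049) in the first set and 1.22 ± 0.22 (adjusted p = 0.0022) in the second. Reads of Ccr2 that also match another gene of similar sequence would not have been counted for it. Ccr3, receptor of eosinophils and mast cells and named after its values were seen, passed the filter on low counts in the second set through HFD alone. Its direction was thus largely fixed in advance. Ccr3 had 132 counts on HFD and 2 on LFD in the second set, a scaled ratio of 32.3 with a 95% counting interval of 8.76 to 269 (adjusted p = 0.0015). The summed markers of eosinophils and mast cells, a list that holds Ccr3 itself, were at 39.0 to 346 CPM on HFD and 9.21 to 19.6 CPM on LFD there. Among them the eosinophil gene Epx was at 0.422 CPM or less on HFD, while the mast cell gene Cpa3 was at 10.6 to 87.8 CPM on HFD and 2.55 to 4.98 CPM on LFD, and the part of these cells was not tested.

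The ligands of CXCR3 went the other way. Cxcl9, induced by interferon gamma, was at 10.9, 10.1, 10.7, 7.92 and 5.17 CPM in the first set on HFD, against 24.5, 28.7, 27.1, 25.9 and 23.3 CPM on LFD. The second set had 16.2, 8.77, 5.23 and 7.88 CPM on HFD, against 24.7, 29.6, 21.6 and 25.8 CPM on LFD. The groups did not overlap, and Cxcl9 fell by 1.53 ± 0.17 (adjusted p = 7e-06) in the first set and by 1.55 ± 0.31 (adjusted p = 0.0033) in the second, on the log2 scale. Cxcl10 was at 1.15, 1.73, 2.2, 0.792 and 1.12 CPM on HFD and at 9.35, 14, 5.7, 11.4 and 8.2 CPM on LFD in the first set (log2 change −2.81 ± 0.30, adjusted p = 5.4e-06). Cxcl11 was at 0.165, 0.742, 1.37, 0.528 and 0.45 CPM on HFD and at 6.24, 8.37, 8.56, 6.34 and 4.76 CPM on LFD in that set (log2 change −3.46 ± 0.35, adjusted p = 3.6e-06). RefSeq's table lists Cxcl11 of this mouse reference as a transcribed pseudogene. Art3, in whose span both lie, fell too: it was at 59.5 ± 32.0 CPM on HFD and 268 ± 17.0 CPM on LFD in the first set (log2 change −2.19 ± 0.30, adjusted p = 4.5e-05), and at 47.9 ± 53.3 CPM on HFD and 209 ± 41.5 CPM on LFD in the second (−2.26 ± 0.70, adjusted p = 0.023). The part of Art3 reads in the values of Cxcl10 and Cxcl11 was not tested, and Cxcl9 carries no such overlap. Cxcl10 in the second set, at −1.64 ± 0.53 (adjusted p = 0.029), passed in 3 of the 8 fits that left 1 library out. Cxcr3, the receptor itself, was at 1.41 to 3.35 CPM on HFD and 0.553 to 1.99 CPM on LFD in the second set and did not pass the filter on low counts there.

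Of the homeostatic pair, the receptor rose and the ligand did not pass the test. Cxcr4 was at 41.1, 27.9, 31.6, 44.9 and 34.2 CPM on HFD and at 10.8, 8.63, 11.4, 12.2 and 16.4 CPM on LFD in the first set, a log2 rise of 1.59 ± 0.17 (adjusted p = 6.8e-06), and it rose by 1.30 ± 0.24 (adjusted p = 0.0023) in the second. Its ligand Cxcl12 averaged 93 ± 25.4 CPM on HFD and 92.5 ± 11.6 CPM on LFD (first set, log2 change 0 ± 0.16, adjusted p = 0.99), and the second set gave −0.27 ± 0.13 (adjusted p = 0.1). Besides Cxcl12, 2 of the 22 members tested in the first set did not pass, Ccl27a and Cxcr6, which are named after their values were seen. Cxcl14 was at 15.3, 6.92, 6.04, 12.9 and 13.9 CPM on HFD and at 1.44, 1.27, 2.28, 1.06 and 0.265 CPM on LFD in the first set (log2 change 3.13 ± 0.39, adjusted p = 2e-05). Cxcl14 of the second set was at 10.3, 18.4, 26.8 and 22.8 CPM on HFD and at 4.04, 0.276, 2.6 and 2.84 CPM on LFD (2.82 ± 0.48, adjusted p = 0.0015). No library of one diet reached the range of the other for Cxcr4 or Cxcl14 in the first set.

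Both transmembrane chemokines, which tether leukocytes to the cell that carries them, were higher on HFD. Cxcl16, a scavenger receptor of macrophages and the ligand of CXCR6, was at 35.3, 24.7, 23.6, 30.6 and 33 CPM on HFD and at 9.11, 11.9, 7.13, 9.51 and 11.4 CPM on LFD in the first set (log2 change 1.58 ± 0.16, adjusted p = 3.4e-06). Of its exon bases 18.3% lie in exons of Zmynd15 on the other strand, a gene named for this overlap, which was at 3.87 ± 0.483 CPM on HFD and 1.54 ± 0.585 CPM on LFD. Cx3cl1 (fractalkine) was at 6.1, 4.7, 4.12, 6.34 and 8.77 CPM on HFD and at 1.68, 1.27, 2.28, 2.38 and 1.85 CPM on LFD (1.67 ± 0.27, adjusted p = 0.00014). In the second set Cxcl16 rose by 1.53 ± 0.25 (adjusted p = 0.0013), and Cx3cl1 by 1.64 ± 0.52 (adjusted p = 0.027), which passed in 4 of 8 fits without 1 library. Cxcl1, a neutrophil attractant, was at 3.03 ± 0.303 CPM on HFD and 1.13 ± 0.398 CPM on LFD in the first set (1.37 ± 0.26, adjusted p = 0.00056). Ccl24, the eosinophil ligand known from alternatively activated macrophages, fell in the first set, with 6.43, 9.64, 10.7, 6.34 and 2.92 CPM on HFD and 14.4, 18.8, 20.8, 16.7 and 14.3 CPM on LFD (−1.26 ± 0.25, adjusted p = 9e-04). Neither Cxcl1 nor Ccl24 was called in the second set. There Cxcl1 was at 1.46 ± 0.398 CPM on HFD and 0.801 ± 0.643 CPM on LFD, and Ccl24 at 3.05 ± 1.16 CPM on HFD and 5.28 ± 2.18 CPM on LFD. All 19 calls of the first set passed in each of the 10 fits that left 1 library out.

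A few receptors of low level were called in the second set alone. Ccr7 was at 1.93, 5.24, 5.64 and 2.82 CPM on HFD and at 0.449, 0.829, 0.26 and 0.284 CPM on LFD (2.91 ± 0.55, adjusted p = 0.0024). With 7 counts in all on LFD, Ccr7 passed the filter on low counts through HFD alone, so its direction was largely fixed in advance. Cx3cr1, the fractalkine receptor of resident macrophages, averaged 3.65 ± 1.11 CPM on HFD and 1.34 ± 0.346 CPM on LFD (1.27 ± 0.34, adjusted p = 0.012). Ccr10 fell to 1.21 ± 0.476 CPM on HFD, against 2.2 ± 0.655 CPM on LFD (−1 ± 0.37, adjusted p = 0.049), and passed in 2 of 8 fits without 1 library and not with DESeq2 (adjusted p = 0.065). Cntnap1, which overlaps Ccr10, fell by 1.74 on the log2 scale there (adjusted p = 0.00082). Ccr7 and Cx3cr1 passed in 5 of those 8 fits each. All 3 were too low to be tested in the first set, so a difference between the sets was not tested. Their first-set means lay in the same direction: Ccr7 was at 2.31 CPM on HFD and 0.803 CPM on LFD, and Cx3cr1 at 3.08 CPM on HFD and 0.514 CPM on LFD. Ccr10 was at 0.764 CPM on HFD and 3.07 CPM on LFD in that set.

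Listed genes that act with the chemokines are set here beside all genes, of which 58% passed in the first set (29.5% higher and 28.5% lower). The calls were mostly higher for receptor signalling and of both signs for the regulators. Of 22 listed genes of chemokine receptor signalling, 21 were tested in the first set, and 19 were higher on HFD and 1 lower, with a median log2 change of 1.44. Rgs1, which shuts off signalling of these receptors, was at 136 ± 59.7 CPM on HFD and 0.975 ± 0.777 CPM on LFD (7.06 ± 0.46, adjusted p = 1.2e-07). Listed genes too could pass the filter on low counts through 1 diet alone. Rgs1 did so through HFD, which largely fixed its direction, and the counts and medians of the lists include such genes. Dock2, which turns receptor signals into movement through Rac, rose by 2.69 ± 0.17 (adjusted p = 1e-07), and Rac2 by 2.71 ± 0.21 (adjusted p = 3.6e-07). In the second set, where 50% of all genes passed, 15 were higher and 2 lower of 21 tested (median 1.21). Many of these genes are used by myeloid cells at large, and the macrophage sums given above moved with them. Among the atypical receptors and regulators, 2 of 8 tested were higher and 3 lower in the first set: Ccrl2 rose by 1.81 ± 0.15 (adjusted p = 7.5e-07) and Pf4 by 1.31 ± 0.16 (adjusted p = 1.5e-05), whereas Ackr4, the scavenger of CCL19, CCL21 and CCL25, fell by 1.57 ± 0.21 (adjusted p = 3e-05). Cmklr1, the chemerin receptor, fell by 0.84 ± 0.12 (adjusted p = 6e-05) and the chemokine-trimming protease gene Dpp4 by 0.56 ± 0.15 (adjusted p = 0.0052). In the second set 2 of 9 were higher and 3 lower. Of the upstream cytokine and NF-kappa-B genes, 7 of 12 tested were higher and 1 lower in the first set, with Tnf at 3.05 ± 0.35 (adjusted p = 9.4e-06) and Tlr2 at 1.59 ± 0.15 (adjusted p = 2.1e-06). In the second set 4 of 11 were higher and 2 lower, with a median of 0.09.

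**Figure D3:**
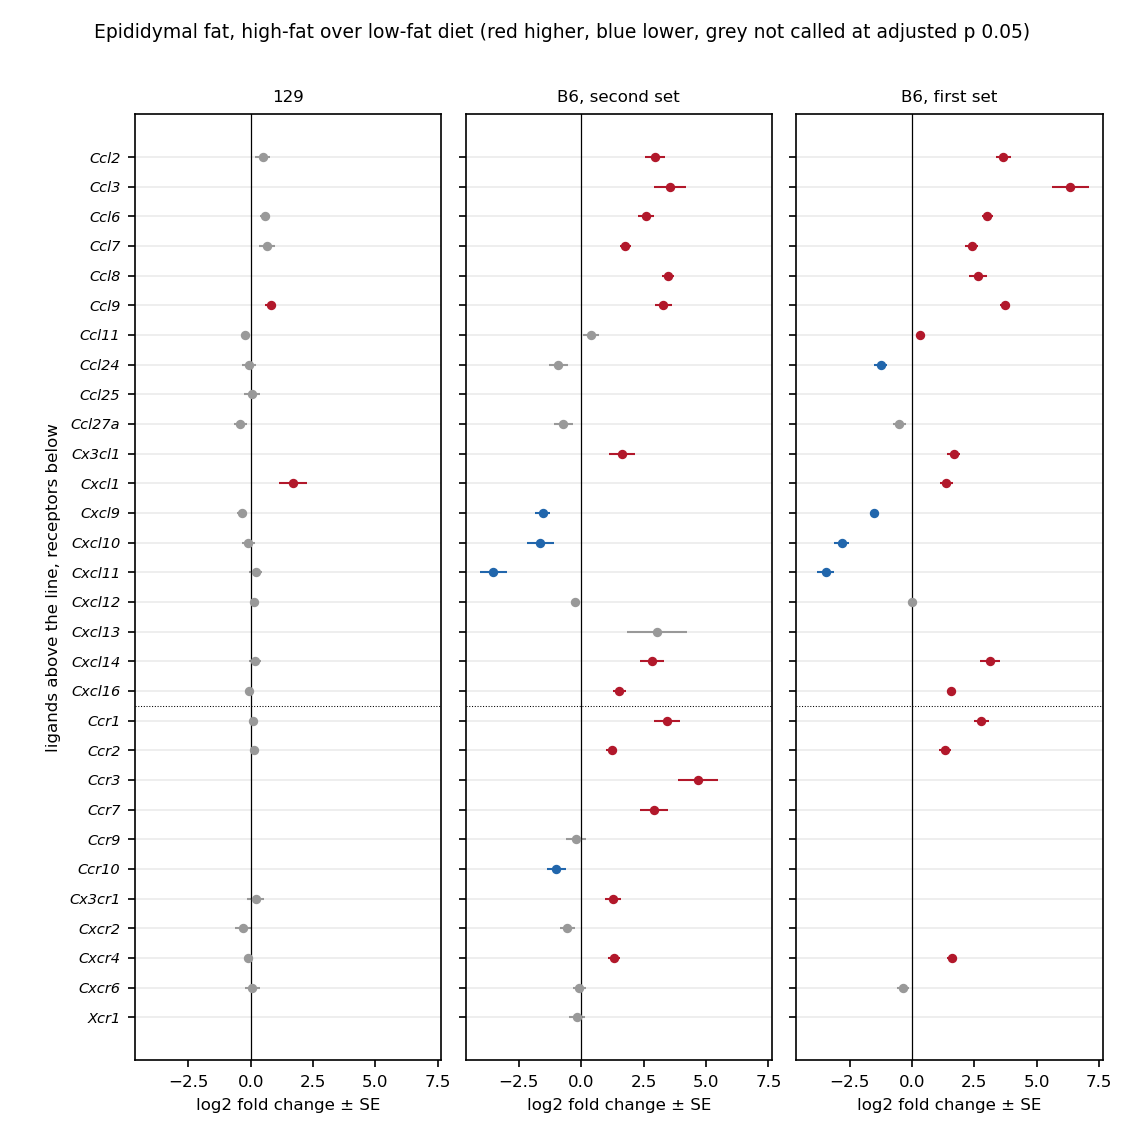
Log2 fold change of HFD over LFD with its SE for each tested member drawn in epididymal fat, in panels for 129, the second B6 set and the first B6 set (red, higher at adjusted p under 0.05; blue, lower; grey, not called). The B6 panels hold 15 and 14 red points and 4 blue points each, and the 129 panel holds 2 red points.

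Epididymal fat of 129 mice showed few of these differences. Of 22 members tested, 2 were higher on HFD and 0 lower, where 21.2% of all genes passed (11.9% higher and 9.27% lower). Ccl9 was at 132, 194, 144 and 153 CPM on HFD, against 84.3, 137, 53.1 and 78.9 CPM on LFD (0.80 ± 0.21, adjusted p = 0.017). Cxcl1 was at 6.94, 3.21, 2.18 and 1.84 CPM on HFD, against 0.22, 2, 1.6 and 0.43 CPM on LFD (1.69 ± 0.55, adjusted p = 0.043). The groups overlapped for both genes, Ccl9 passed in 6 and Cxcl1 in 3 of the 8 fits without 1 library, Ccl9 did not pass with DESeq2 (adjusted p = 0.051), and the number of members called was 0 without LFD replicate 1 or 4, 1 without LFD replicate 3, HFD replicate 1 or HFD replicate 2, and 2 or 3 without each of the others. Ccl2 was at 6.07, 8.93, 3.19 and 3.69 CPM on HFD, against 4.18, 3.81, 3.79 and 3.87 CPM on LFD (0.49 ± 0.30, adjusted p = 0.27). Ccr2 averaged 27.5 ± 7.33 CPM on HFD and 24.4 ± 5.91 CPM on LFD (adjusted p = 0.6), and Cxcl9 7.86 ± 0.555 CPM on HFD and 9.81 ± 2.92 CPM on LFD (adjusted p = 0.22). Summed ligands were at 430 ± 65.3 CPM on HFD and 320 ± 62.3 CPM on LFD, and summed receptors at 71.2 ± 11.1 CPM on HFD and 65.3 ± 8.33 CPM on LFD. Summed macrophage markers were at 1550 to 1970 CPM on HFD and 1360 to 1960 CPM on LFD, and run and diet cannot be told apart here either.

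The difference between the strains in the effect of diet was itself tested, as (129 HFD minus 129 LFD) minus (B6 HFD minus B6 LFD) over the second set and the 129 groups, whose diet contrasts crossed the same runs. Of 31 members tested, 2 had a more positive diet effect in 129 and 14 a more negative one, where 40.2% of all genes passed (18.7% higher and 21.5% lower). The median was −1.1 over the members and 0 over all genes. Members such as Ccl3 and Ccr3 passed the filter on low counts only through B6 on HFD, and the counts and the median include them. Ccl9 differed by −2.52 (adjusted p = 0.0003), Ccr1 by −3.38 (adjusted p = 0.00032) and Ccl8 by −4.79 (adjusted p = 0.00054). Ccl6 (−2.07, adjusted p = 0.0011), Ccl2 (−2.5, adjusted p = 0.0025) and Ccr2 (−1.1, adjusted p = 0.013) followed. The 2 positive differences were Cxcl11 (3.69, adjusted p = 0.00021) and Cxcl9 (1.16, adjusted p = 0.028). Art3 differed by 2.22 ± 0.71 (adjusted p = 0.021) beside Cxcl11. Most of these calls passed in all 16 fits without 1 library, and the exceptions were Ccr3 (15 of 16), Cxcl9 (12 of 16) and Ccl7 (9 of 16). Of the macrophage markers, 16 of 18 tested had a more negative diet effect in 129 and 0 a more positive one, and their part was not tested.

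Set against B6 on the same diet and lane, 129 epididymal fat differed in 5 of 21 members tested on LFD. That share of 23.8% lay below the 32.3% of all genes. On HFD, 129 differed in 21 of 30 members, or 70%, against 54.2% of all genes. That share includes members that passed the filter on low counts only through B6, as given below. The mm9 reference comes from C57BL/6J, so 129 reads that differ from it may be lost more often, which was not tested. On LFD the share of uniquely placed reads assigned to no gene also differed, at 32.3 to 36.7% in 129 and 39.3 to 49.1% in B6. Its part in the results was not tested. On LFD, 2 of 21 members tested were higher in 129 and 3 lower, where 32.3% of all genes passed (16.1% higher and 16.2% lower). Cxcl12 was at 49.8, 42.7, 50.1 and 37.6 CPM in 129, against 92.3, 112, 106 and 82.8 CPM in B6 (−1.17 ± 0.12, adjusted p = 7e-05), and Cxcl9 averaged 9.81 ± 2.92 CPM in 129 and 25.4 ± 3.29 CPM in B6 (−1.42 ± 0.20, adjusted p = 0.00046). Cxcl14 was at 10.3, 8.82, 9.58 and 4.3 CPM in 129, against 4.04, 0.276, 2.6 and 2.84 CPM in B6 (1.67 ± 0.43, adjusted p = 0.011). The groups of these 3 genes did not overlap. Cx3cl1 (−1.12 ± 0.37, adjusted p = 0.037) and Ccr1 (1.03 ± 0.35, adjusted p = 0.039) passed in 2 of 8 fits without 1 library each, Cx3cl1 did not pass with DESeq2 (adjusted p = 0.068), and without B6 replicate 2, 129 replicate 1 or 129 replicate 4 the count of called members was 3. The 2 members with the highest B6 response to HFD in CPM did not pass on LFD: Ccl6 averaged 82.3 ± 26.1 CPM in 129 and 79.0 ± 24.6 CPM in B6 (adjusted p = 0.97), and Ccl9 88.4 ± 35.3 CPM in 129 and 59.7 ± 26.3 CPM in B6 (adjusted p = 0.2). Endothelial markers summed to 615 to 795 CPM in 129 and 815 to 1230 CPM in B6, with 6 of 8 lower and 1 higher in 129. Dendritic cell markers were at 26 to 30.3 CPM in 129 and 38.3 to 53.6 CPM in B6, with 5 of 6 lower and 1 higher, and 0 of 18 macrophage markers were lower and 1 higher. The part of these cells in Cxcl12, Cx3cl1 and the other calls was not tested.

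On HFD, 3 of 30 members tested were higher in 129 and 18 lower, where 54.2% of all genes passed (25.3% higher and 28.9% lower), with a median of −1.3 over the members and −0.01 over all genes. Some members passed the filter on low counts only through B6: Ccl3 had 5 counts in 129 and 191 in B6, and Ccr3 had 4 in 129 and 132 in B6. The direction of such members was largely fixed in advance, and the counts, the share and the median include them. Ccl8 was at 0.578, 1.81, 1.01 and 0.335 CPM in 129, against 26.3, 33.4, 36.1 and 27.6 CPM in B6 (−4.94 ± 0.31, adjusted p = 2e-05). Every 129 library lay below every B6 library, and the same held for Cxcr4 (−1.75 ± 0.15, adjusted p = 5.6e-05), Cxcl16 (−2.01 ± 0.21, adjusted p = 0.00012), Ccl9 (−1.98 ± 0.22, adjusted p = 0.00016) and Ccl2 (−2.65 ± 0.32, adjusted p = 0.00025). Ccr2 averaged 27.5 ± 7.33 CPM in 129 and 88.8 ± 10.2 CPM in B6 (−1.64 ± 0.18, adjusted p = 0.00016). Cxcl12 was lower in 129 on this diet too, with 42.3, 59.5, 43.5 and 57 CPM in 129 and 94.3, 76.2, 99.2 and 89.4 CPM in B6 (−0.78 ± 0.14, adjusted p = 0.0017). Cxcl14 went against its LFD direction, with 8.09, 12, 9.24 and 8.38 CPM in 129 and 10.3, 18.4, 26.8 and 22.8 CPM in B6 (−1 ± 0.28, adjusted p = 0.014). The higher members were Cxcl11 (2.85 ± 0.48, adjusted p = 0.0013; Art3 2.13 ± 0.69, adjusted p = 0.029), Cxcl1 (1.33 ± 0.45, adjusted p = 0.032) and Ccl24 (0.91 ± 0.34, adjusted p = 0.049). Cxcl1 passed in 4 and Ccl24 in 2 of 8 fits without 1 library. Summed macrophage markers were at 1550 to 1970 CPM in 129 and 6760 to 23600 CPM in B6, with 16 of 18 lower in 129. Fibroblast and progenitor markers were at 3230 to 4080 CPM in 129 and 7270 to 11200 CPM in B6, with 8 of 9 lower, while 3 of 8 endothelial markers were higher and 0 lower. The part of these cells was not tested, and this comparison shares its libraries with the diet comparisons above.

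In inguinal fat on HFD, 1 of 22 members tested was higher in 129 than in B6 and 10 were lower, where 27.8% of all genes passed (11.7% higher and 16.1% lower). Each strain had a lane of its own here, so lane and strain cannot be told apart. Cxcr4 was at 6.27, 6.32, 6.17 and 7.89 CPM in 129, against 19.3, 16.8, 15.2 and 19 CPM in B6 (−1.42 ± 0.14, adjusted p = 6.9e-05), and Ccl8 at 4.75, 3.86, 4.03 and 2.18 CPM in 129, against 18.9, 7.91, 28 and 20.1 CPM in B6 (−2.37 ± 0.36, adjusted p = 0.00094). Cxcl12 averaged 58.8 ± 8.61 CPM in 129 and 80.8 ± 9.68 CPM in B6 (−0.48 ± 0.12, adjusted p = 0.013), lower in 129 in this depot as in epididymal fat. The higher member was Cxcl14, at 106, 64.5, 93.8 and 73.7 CPM in 129, against 40.3, 22.4, 57.4 and 26.8 CPM in B6 (1.19 ± 0.26, adjusted p = 0.0072). Groups did not overlap for any of these 4 genes. Ccr2 averaged 19.9 ± 6.06 CPM in 129 and 54.4 ± 13.4 CPM in B6 (−1.47 ± 0.23, adjusted p = 0.0011), Ccl2 3.14 ± 1.41 CPM in 129 and 9.68 ± 1.87 CPM in B6 (−1.62 ± 0.29, adjusted p = 0.0023) and Ccl11 36.6 ± 4.60 CPM in 129 and 52.8 ± 2.13 CPM in B6 (−0.55 ± 0.09, adjusted p = 0.0017). Cxcl16 (−0.76 ± 0.19, adjusted p = 0.013) was lower as well. Cxcl9 (−1.08 ± 0.31, adjusted p = 0.023) and Ccl7 (−0.92 ± 0.31, adjusted p = 0.046) passed in 3 and 1 of 8 fits without 1 library. Summed macrophage markers were at 977 to 1360 CPM in 129 and 1520 to 3350 CPM in B6, with 13 of 18 lower in 129. Endothelial markers were at 602 to 671 CPM in 129 and 862 to 1050 CPM in B6, with 5 of 8 lower, and 4 of 6 dendritic cell markers were lower and 1 higher. The part of these cells was not tested.

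**Figure D4:**
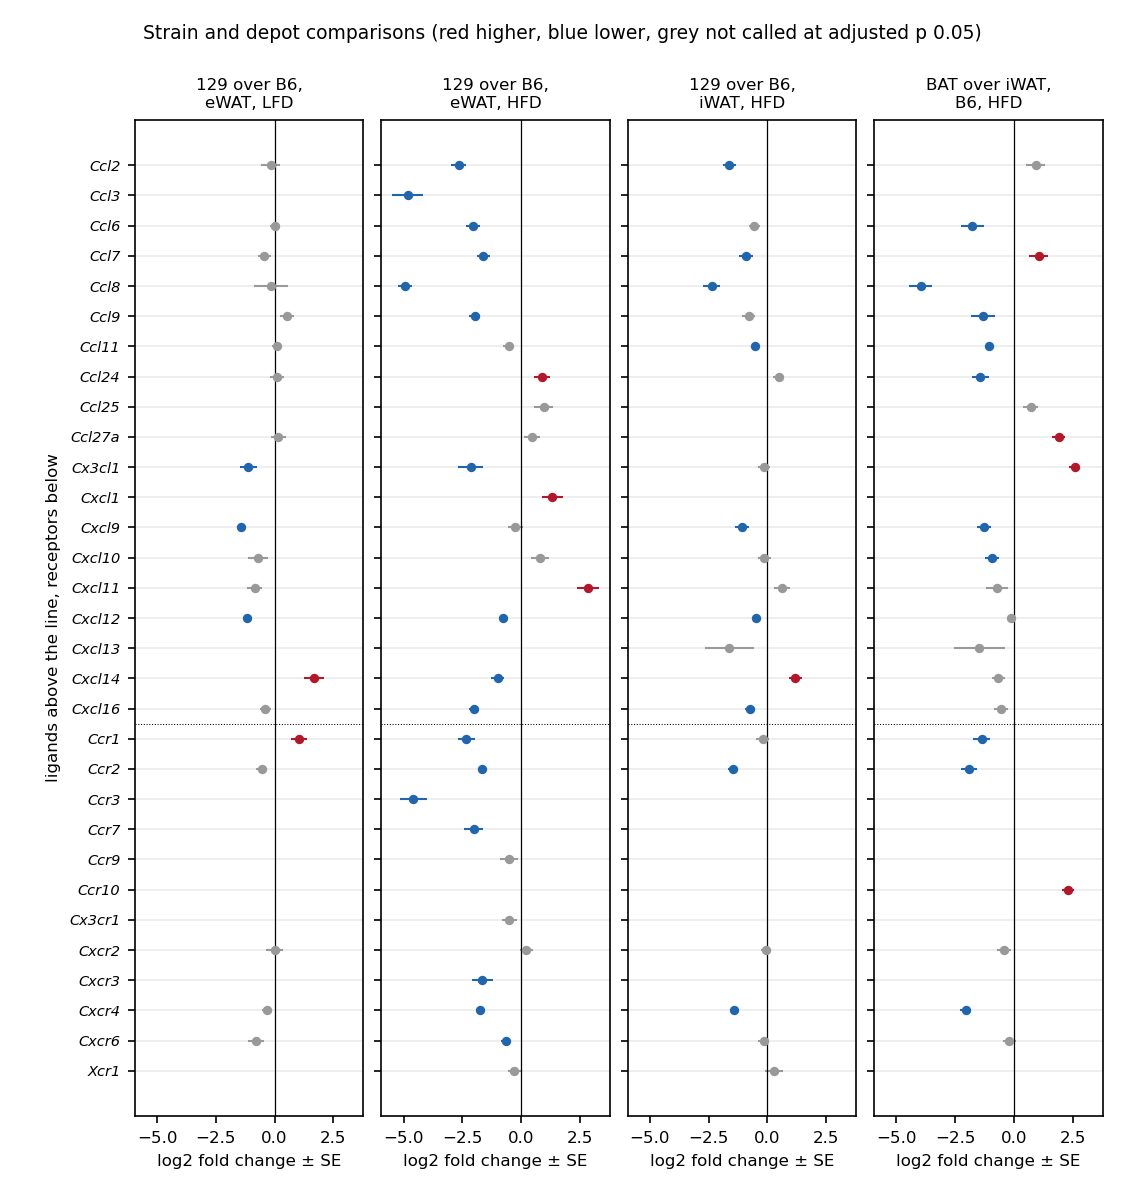
Log2 fold change with its SE of each tested member drawn for 129 over B6 in epididymal fat on LFD, epididymal fat on HFD and inguinal fat on HFD, and for B6 brown over inguinal fat on HFD (red, higher at adjusted p under 0.05; blue, lower; grey, not called). Blue points number 3, 17, 9 and 10 in these panels, and Cxcl12 is blue in the 3 strain panels.

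In B6 inguinal fat, Ccr2, Ccl2 and Cxcr4 were higher and Cxcl11 and Ccl24 lower on HFD, and the difference from epididymal fat was not tested. Of 27 members tested, 3 were higher on HFD and 2 lower, a share of 18.5% close to that of all genes, of which 22.7% passed (11.7% higher and 11.1% lower). Ccr2 was at 36.7, 56.8, 69.3 and 54.6 CPM on HFD, against 36.7, 32.2, 37.8 and 35 CPM on LFD (0.61 ± 0.16, adjusted p = 0.023), and Ccl2 at 11, 7.03, 11 and 9.67 CPM on HFD, against 5.67, 1.19, 4.97 and 5.73 CPM on LFD (1.08 ± 0.33, adjusted p = 0.041). Cxcr4 averaged 17.6 ± 1.92 CPM on HFD and 10.8 ± 3.68 CPM on LFD (0.71 ± 0.23, adjusted p = 0.047). Cxcl11 was at 1.99, 4.4, 2.68 and 2.94 CPM on HFD, against 5.43, 9.33, 6.58 and 7.48 CPM on LFD (−1.25 ± 0.26, adjusted p = 0.0087), while Art3 averaged 250 CPM on both diets (adjusted p = 0.99). Ccl24 was at 5.12, 4.98, 7.87 and 5.63 CPM on HFD, against 9.09, 14.1, 8.2 and 11.8 CPM on LFD (−0.87 ± 0.22, adjusted p = 0.02). Cxcl11 alone passed in all 8 fits without 1 library: Ccr2 and Ccl24 passed in 5, Ccl2 and Cxcr4 in 2, and the count of called members was 1 without HFD replicate 4, 2 without HFD replicate 3 or LFD replicate 4 and 3 without LFD replicate 1 or 3. Ccl6 averaged 117 ± 45.1 CPM on HFD and 112 ± 41.1 CPM on LFD (adjusted p = 0.91). The LFD libraries held 3450 to 38300 CPM of skeletal muscle markers, against 65.3 to 146 CPM on HFD, which was not tested as a source of these differences.

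In inguinal fat of F1 mice on LFD, rosiglitazone went with less RNA of the ligand genes Ccl11, Ccl24, Ccl6, Ccl9, Cxcl10, Cxcl11 and Cxcl14 and of the receptor genes Ccr2 and Cxcr4, and with more Cxcl9. The ligand genes Ccl2, Ccl7 and Ccl8 were too low to be tested there. Of 17 members tested, 1 was higher with rosi and 9 lower, where 37.8% of all genes passed (18.7% higher and 19.1% lower). The median was −0.85 over the members and −0.03 over all genes. Without control replicate 1, the library rich in lymph node markers, the same 10 members of 17 tested were called, where 38% of all genes passed (19% higher and 19% lower), with a median of −0.87 over the members. Summed ligands came to 249 ± 31.4 CPM under rosi and 324 ± 52.5 CPM in controls (n = 5 each), or 308 ± 44.8 CPM in the 4 controls without that library. Brown adipocyte markers were at 1920 to 6760 CPM under rosi and 196 to 482 CPM in controls, and macrophage markers at 220 to 406 CPM under rosi and 437 to 1420 CPM in controls, with 16 of 17 lower (437 to 988 CPM and 14 of 17 without control replicate 1). Fibroblast and progenitor markers were at 2240 to 3750 CPM under rosi and 3970 to 7200 CPM in controls, with 6 of 9 lower and 0 higher and a median of −1.04 (−1.06 without that library). The part of these cells was not tested.

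Ccl11, the eotaxin made by adipocyte progenitors and fibroblasts, had the lowest adjusted p of the members, and the markers of those cells were lower in the same libraries. It was at 14.5, 17.4, 18.8, 16.1 and 17.7 CPM under rosi, against 36.5, 36.7, 45.8, 38.3 and 31.6 CPM in controls (−1.16 ± 0.12, adjusted p = 1.3e-05). Ccl24, the second eosinophil ligand, was at 0.29, 3.42, 0.673, 2.04 and 1.42 CPM under rosi, against 6.54, 5.49, 6.74, 6.25 and 2.87 CPM in controls (−1.77 ± 0.42, adjusted p = 0.005). Ccl9 was at 4.93, 7.37, 6.39, 9.29 and 6.84 CPM under rosi, against 22.8, 16.2, 28.7, 22.8 and 18.3 CPM in controls (−1.63 ± 0.20, adjusted p = 3.8e-05). The groups of Ccl11 and Ccl9 did not overlap, and those of Ccl24 overlapped in 1 rosi library. Ccl6 was at 2.03, 8.16, 7.06, 9.51 and 10.8 CPM under rosi, against 32.3, 18.2, 41.4, 36.3 and 15.9 CPM in controls (−1.93 ± 0.35, adjusted p = 0.00079). Ccr2 was at 7.83, 11.3, 11.8, 11.3 and 11.4 CPM under rosi, against 47.7, 20.2, 27.2, 20.8 and 17 CPM in controls (−1.33 ± 0.27, adjusted p = 0.0021). Cxcl14 was at 17.7, 36, 33.3, 27.6 and 25.9 CPM under rosi, against 45.8, 59.9, 43.8, 62 and 42 CPM in controls (−0.85 ± 0.17, adjusted p = 0.0018). No rosi library of Ccl6, Ccr2 or Cxcl14 reached the lowest control. Without control replicate 1 the log2 changes were −1.16 for Ccl11, −1.68 for Ccl24, −1.59 for Ccl9, −1.87 for Ccl6, −0.98 for Ccr2 and −0.87 for Cxcl14, with adjusted p from 9.4e-06 to 0.0055.

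Cxcl9 was the member that rose, at 47.9, 52.9, 46.8, 46.4 and 35 CPM under rosi, against 23.2, 27.9, 22.6, 24.8 and 26.1 CPM in controls (0.88 ± 0.11, adjusted p = 6.8e-05). Its 2 relatives fell: Cxcl11 was at 5.51, 4.21, 5.38, 5.44 and 3.13 CPM under rosi, against 6.12, 13, 14, 12 and 17 CPM in controls (−1.37 ± 0.26, adjusted p = 0.0011). Cxcl10 was at 4.93, 7.37, 4.71, 10.4 and 4.27 CPM under rosi, against 10.3, 10.2, 13, 12.8 and 13.6 CPM in controls (−0.89 ± 0.23, adjusted p = 0.0086). The proteins CXCL9, CXCL10 and CXCL11 bind 1 receptor, though Cxcl11 is listed as a transcribed pseudogene of the mouse reference, as given above. The genes that fell are the 2 that lie within Art3, which averaged 147 ± 32.9 CPM under rosi and 280 ± 48.4 CPM in controls (−0.92 ± 0.15, adjusted p = 0.00045). The part of Art3 reads was not tested. Cxcr4 was at 2.61, 4.21, 1.35, 2.04 and 3.13 CPM under rosi, against 70.3, 6.49, 9.88, 8.75 and 6.53 CPM in controls (−2.96 ± 0.75, adjusted p = 0.0075). Without control replicate 1 its log2 change was −1.53 (adjusted p = 0.00053), and those of Cxcl9, Cxcl11, Cxcl10 and Art3 were 0.87, −1.54, −0.91 and −1.01. DESeq2 gave no adjusted p for Cxcr4. Cxcl12 averaged 111 ± 22.5 CPM under rosi and 93.0 ± 18.3 CPM in controls (0.25 ± 0.17, adjusted p = 0.27), and without rosi replicate 5, its lowest library, the change was 0.40 (adjusted p = 0.047). Of the listed regulators, 1 of 5 tested rose, Ackr4 (1.29 ± 0.12, adjusted p = 6.6e-06), and 3 fell, among them Cmklr1 (−3.55 ± 0.19, adjusted p = 3e-07) and Pf4 (−1.38 ± 0.33, adjusted p = 0.0052). Of the signalling genes, 1 of 18 tested was higher and 11 lower, and of the upstream genes 5 of 11 were lower, with Tnfaip3, a brake on NF-kappa-B, at −1.78 ± 0.27 (adjusted p = 0.00024), where 37.8% of all genes passed and 19.1% were lower. Without control replicate 1 the same counts were 1 and 3 of 5 for the regulators, 2 and 8 of 18 for the signalling genes and 0 and 5 of 11 for the upstream genes, with Tnfaip3 at −1.51, Ackr4 at 1.24, Cmklr1 at −3.62 and Pf4 at −1.33.

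**Figure D5:**
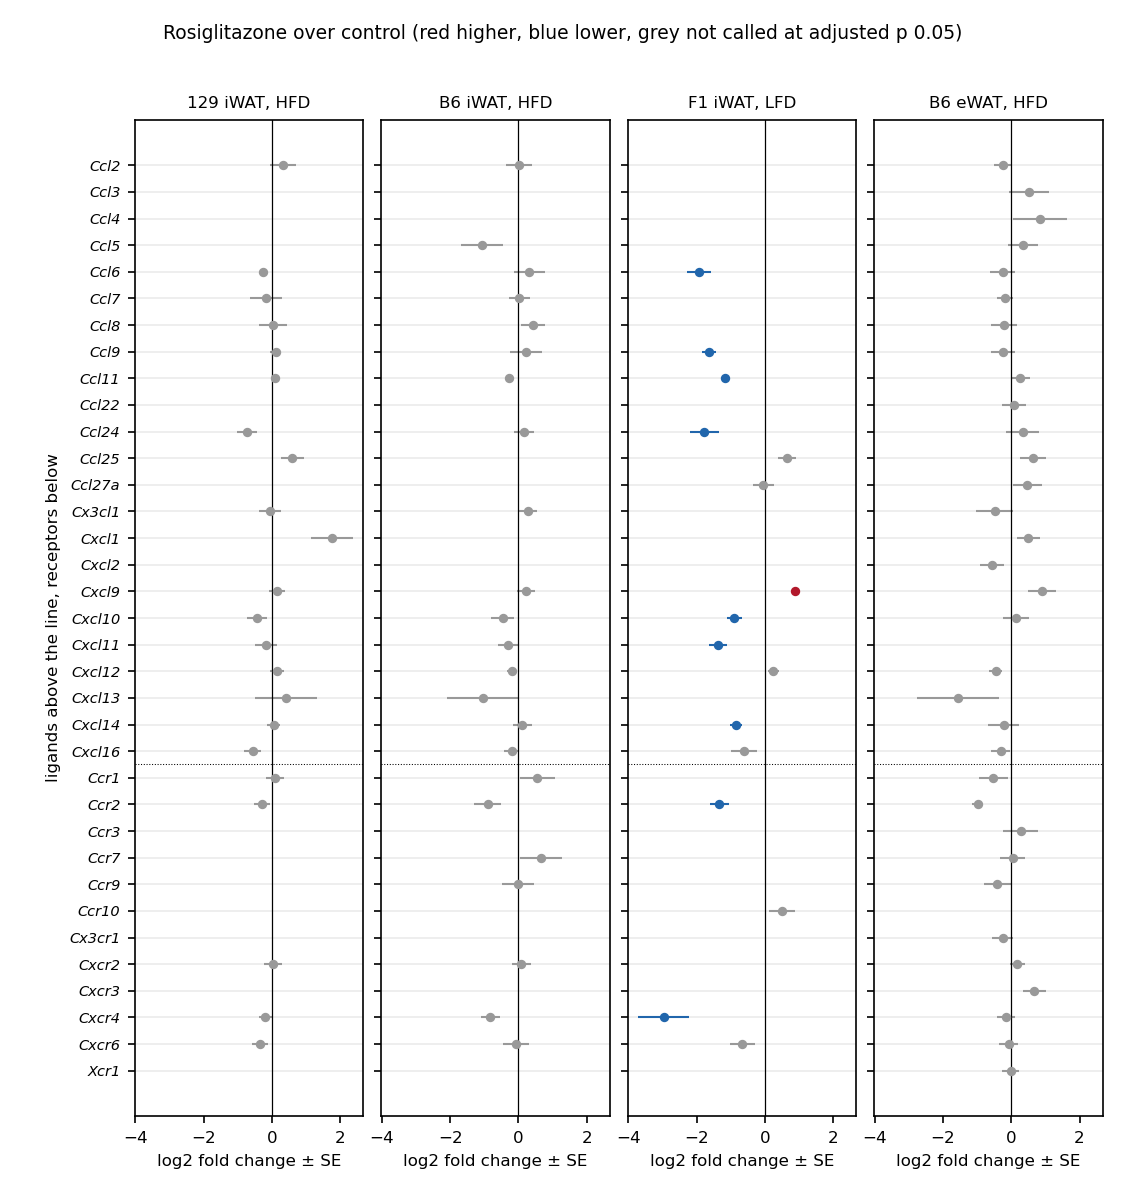
Log2 fold change of rosi over control with its SE for each tested member drawn, in 129 inguinal fat on HFD, B6 inguinal fat on HFD, F1 inguinal fat on LFD and B6 epididymal fat on HFD (red, higher at adjusted p under 0.05; blue, lower; grey, not called). Coloured points are in the F1 panel, 1 red for Cxcl9 and 9 blue, and the other panels are grey throughout.

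In mice on HFD, no member passed the test between rosi and control, in counts that were 0 of 24 tested in B6 iWAT, 0 of 23 in 129 iWAT and 0 of 34 in B6 eWAT. Of all genes tested, 13.2% passed in B6 iWAT (6.83% higher and 6.38% lower), 0.11% in 129 iWAT (0.0394% higher and 0.0708% lower) and 0% in B6 eWAT. At an unadjusted p under 0.05 stood 3 members in each of these comparisons, and 3516, 1084 and 624 of all genes in the same order. DESeq2 called 1 member in B6 iWAT (Cxcr4, adjusted p = 0.041), 0 in 129 iWAT and 1 in B6 eWAT (Ccr2, adjusted p = 8.8e-05). Of all genes it called 1880, 188 and 30 in the same order. Ccr2 in B6 eWAT was at 53.1, 39, 35.2 and 41.1 CPM under rosi, against 92.4, 84.7, 77.3 and 101 CPM in controls, groups that did not overlap (−0.98 ± 0.16, adjusted p = 0.44 with edgeR). Ccl2 was at 36.5, 36.1, 26 and 16.6 CPM under rosi, against 25.9, 47.9, 30.3 and 40.5 CPM in controls. Summed macrophage markers there were at 4100 to 20800 CPM under rosi and 6760 to 23600 CPM in controls, and 0 of 18 passed.

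In B6 iWAT, 1 library decided the result for Ccr2. It was at 61.9, 14.6, 18.1 and 22.6 CPM under rosi, against 36.7, 56.8, 69.3 and 54.6 CPM in controls (−0.90 ± 0.40, adjusted p = 0.18). The high value is that of rosi replicate 1, in which Ccl2 was at 20.4 CPM, Ccl6 at 289 CPM, Ccl9 at 282 CPM and Ccr1 at 25.3 CPM. Without this library 2 members were called, Ccr2 (−1.54, adjusted p = 0.00095) and Cxcr4 (−1.05, adjusted p = 0.013), and without rosi replicate 4 it was 1, Ccl11 (−0.34, adjusted p = 0.043). All genes called numbered 2542 without rosi replicate 1 and 929 without rosi replicate 4, against 1689 with all libraries. The difference between 129 and B6 iWAT in the effect of rosi passed for 0 of 29 members tested, where 0.106% of all genes passed (0.0904% higher and 0.0151% lower) and 1 member had an unadjusted p under 0.05. Cmklr1, on the list of regulators, fell with rosi in B6 iWAT (−1.62 ± 0.22, adjusted p = 0.0015) and in 129 iWAT (−1.12 ± 0.13, adjusted p = 0.019).

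Brown fat of B6 mice on HFD differed from inguinal fat on HFD in 14 of 24 members tested, 4 higher and 10 lower, a share of 58.3% where 65.3% of all genes passed (32.1% higher and 33.2% lower). Run and tissue cannot be told apart in this comparison. Cx3cl1 was at 15.9, 11.7, 9.08 and 11.5 CPM in BAT, against 2.7, 1.47, 1.84 and 2.08 CPM in iWAT (2.59 ± 0.24, adjusted p = 4.7e-06). Ccl27a, a ligand of CCR10, was at 5.55, 4.4, 4.27 and 3.4 CPM in BAT, against 1.42, 0.879, 1.51 and 0.979 CPM in iWAT (1.91 ± 0.27, adjusted p = 0.00012). Ccr10, its receptor, was at 7.66, 7.34, 6.67 and 5.49 CPM in BAT, against 2.13, 1.32, 0.837 and 1.22 CPM in iWAT (2.30 ± 0.27, adjusted p = 2.9e-05). Every BAT library lay above every iWAT library for these 3 genes. Cntnap1, which covers a part of Ccr10, averaged 52.4 CPM in BAT and 6.37 CPM in iWAT (3.06 ± 0.20, adjusted p = 2.8e-07), and its part in the Ccr10 counts was not tested.

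Ccl11, Cxcr4 and Ccl8 had the lowest adjusted p of the members that were lower in brown fat. Ccl8 was at 1.59, 0.293, 1.6 and 1.05 CPM in BAT, against 18.9, 7.91, 28 and 20.1 CPM in iWAT (−3.96 ± 0.49, adjusted p = 3.9e-05). Cxcr4 was at 3.96, 1.76, 4.27 and 6.27 CPM in BAT, against 19.3, 16.8, 15.2 and 19 CPM in iWAT (−2.06 ± 0.25, adjusted p = 3.6e-05), and Ccl11 at 25.4, 17.9, 25.9 and 28.2 CPM in BAT, against 52.1, 55.2, 50.2 and 53.5 CPM in iWAT (−1.08 ± 0.13, adjusted p = 2.6e-05). Groups did not overlap for these 3 genes. Ccr2 averaged 13.8 ± 8.04 CPM in BAT and 54.4 ± 13.4 CPM in iWAT (−1.92 ± 0.34, adjusted p = 5e-04), and Ccl6 33.1 ± 25.2 CPM in BAT and 117 ± 45.1 CPM in iWAT (−1.77 ± 0.48, adjusted p = 0.0073). Cxcl9 (−1.26 ± 0.30, adjusted p = 0.0032), Ccl24 (−1.44 ± 0.36, adjusted p = 0.0045), Ccr1 (−1.37 ± 0.35, adjusted p = 0.0054), Cxcl10 (−0.92 ± 0.30, adjusted p = 0.018; Art3 −1.44 ± 0.13, adjusted p = 3.7e-06) and Ccl9 (−1.32 ± 0.51, adjusted p = 0.042) were lower too. The CCR2 ligands Ccl7 and Ccl2 did not follow Ccl8: Ccl7 was at 16.1, 2.93, 18.7 and 14.4 CPM in BAT, against 5.26, 5.71, 7.7 and 7.22 CPM in iWAT (1.05 ± 0.39, adjusted p = 0.032). Ccl2 was at 24.1, 3.52, 26.7 and 16.7 CPM in BAT, against 11, 7.03, 11 and 9.67 CPM in iWAT (0.92 ± 0.41, adjusted p = 0.069), and without BAT replicate 2, the lowest library of both genes, at 1.26 (adjusted p = 0.00033). Deviations of samples with the same replicate number correlated at 0.24 to 0.36 in this comparison. The labels used here state no pairing and samples of unlike number were not compared, so pairing was not settled. The values above are from the fit without a block. With replicate as a block Ccl2 (adjusted p = 0.023), Cxcl14 (0.03, against 0.064 without the block) and Cxcl13 (0.033, against 0.25) also passed. Of all genes 8346 passed with the block and 8117 without it. Without iWAT replicate 1 the log2 change of Cxcl13, −1.48 in the fit without the block, was 0.28. Ccl7 passed in 2, Ccl9 in 4 and Cxcl10 in 6 of 8 fits without 1 library, and Ccl9 did not pass with DESeq2 (adjusted p = 0.077). Summed macrophage markers were at 239 to 958 CPM in BAT and 1520 to 3350 CPM in iWAT, with 15 of 18 lower in BAT. Fibroblast and progenitor markers were at 823 to 2170 CPM in BAT and 5020 to 9650 CPM in iWAT, with 8 of 9 lower (median −2.23), and eosinophil and mast cell markers at 3.7 to 13.6 CPM in BAT and 19.8 to 46 CPM in iWAT, with 4 of 4 lower. The part of these cells was not tested.

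Members of lymphoid organs were near the lower limit in most fat. Cxcl13, the B cell attractant of follicles, varied between libraries of 1 group: it was at 19.9, 41.1, 2.01 and 0.704 CPM in B6 eWAT on HFD control and at 27.5, 0.147, 5.86 and 2.08 CPM in B6 iWAT on HFD control. Its change with diet in the second B6 set was 3.04 ± 1.2 (adjusted p = 0.06; 0.026 with DESeq2). Besides F1 control replicate 1, the 3 libraries with the highest summed B cell markers were HFD control replicate 2 of B6 eWAT (89.8 CPM), rosi replicate 3 of B6 iWAT (75.4 CPM) and rosi replicate 1 of B6 eWAT (60.1 CPM). Ccr7 was at 5.24, 5.24 and 4.19 CPM in them, and Cxcr5 at 5.85, 3.25 and 3.52 CPM. Ccr7 was as high in some libraries with less of these markers: it was at 5.64 CPM in B6 eWAT HFD control replicate 3 (27.6 CPM of markers) and at 5.5 CPM in 129 iWAT rosi replicate 3 (28.7 CPM). Ccl22, a ligand of CCR4 from dendritic cells, was at 11.4 CPM in F1 control replicate 1 and at 3.01 CPM or less in B6 eWAT with rosi. Xcr1, the receptor of cross-presenting dendritic cells, was at 6.33 CPM in F1 control replicate 1, against 0.499 to 1.31 CPM in the other F1 controls. Ccr4, the receptor for Ccl22, stayed below the minimum for a measured member, and so did Ccl17, Ccl20, Ccr6, Ccr8, Cxcl5 and Xcl1.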

How the data were processed

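RNA of 64 mouse fat libraries was analysed in 15 groups set by strain, depot, diet and agent in the labels. The deposited values are raw read counts per gene symbol: per the submitters' processing notes, the authors used TopHat2 2.1.0, HTSeq (version not given in the sources used here) and the mm9 build. Per the labels' protocols, Ribo-Zero gold took out ribosomal RNA before a TruSeq kit that does not mark strand. The strand setting of counting is not given in the sources used here. Tallies of unassigned reads were left out of library sizes, and 0 columns of per-sample values were left unused.

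Each comparison was fitted on its own groups with edgeR 4.0.16 in R 4.3.3 (TMM scaling, filterByExpr with a minimum of 10 counts in a library and 15 in all, quasi-likelihood F test, Benjamini-Hochberg adjustment at 0.05 over all genes tested). The script was tested on simulated data with 200 changed genes. Members removed by this filter have levels and no test. In every comparison a member low in 1 group could pass the filter through the other group alone, which largely fixes its direction. Levels are CPM with TMM over all libraries. DESeq2 1.42.0, RLE scaling, no filter, a replicate block and leaving each library out were the alternatives. Replicate numbers were taken as a possible pairing where every pair's deviations correlated above 0.1, which held between brown and inguinal fat (0.24 to 0.36 in 4 pairs). Samples of unlike number were not compared, and the main fits used no block. Genes named with a test are members past the threshold (where over 14, the 7 each way with the lowest adjusted p), chemokines and receptors fixed by name, and genes of fixed pathway and cell type lists. In the counts, sums and medians 1 measured receptor gene and 1 gene of a pathway list are included whose own values are not reported here or drawn. Members and lists were chosen with earlier results of these data known. Promoters come from RefSeq on GRCm38.p6 and gene overlaps from GENCODE M21 on GRCm38, used with gene symbols only. Intervals cover counting error only.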

Additional observations from a re-analysis of the deposited data

Results flagged for a closer look

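Of 222 sets of 4 or 5 libraries examined for 1 value apart from the rest, 18 held one. The cut-off flags about 1 in 20 sets of independent, normally distributed values. These sets share libraries and some rest on very few reads, so that rate may not hold for them. Some libraries recurred. B6 iWAT HFD rosi replicate 1 had Ccl2 at 20.4 CPM (nearest library 6.92) and Ccr2 at 61.9 CPM (nearest 22.6). F1 iWAT control replicate 1, the library with lymph node markers, had Cxcr4 at 70.3 CPM (nearest 9.88) and Cxcl16 at 18.4 CPM (nearest 5.99).

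Other single high values were Ccl9 at 61.3 CPM in replicate 3 of B6 eWAT LFD, Cxcl13 at 8.46 CPM in replicate 1 of B6 BAT HFD, Ccr3 at 7.38 CPM in replicate 3 of B6 eWAT HFD control, Cxcl10 at 5.88 CPM in replicate 3 of 129 eWAT HFD control and Cxcr4 at 7.89 CPM in replicate 4 of 129 iWAT HFD control. A few high values rested on very few reads: Ccl3 at 0.335 CPM in replicate 4 of 129 eWAT HFD control, Ccl3 at 0.24 CPM in replicate 1 of B6 eWAT LFD and Ccr3 at 0.567 CPM in replicate 4 of B6 eWAT LFD control. Single low values were Ccl11 at 46.9 CPM in replicate 2 of B6 eWAT LFD, Ccl2 at 1.19 CPM in replicate 2 of B6 iWAT LFD control, Cxcl16 at 2.84 CPM in replicate 4 of 129 iWAT HFD rosi, and in F1 iWAT rosi Ccr2 at 7.83 CPM in replicate 1, Cxcl16 at 3.7 CPM in replicate 3 and Cxcl12 at 72.1 CPM in replicate 5.

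The effect of diet on epididymal fat differed between 129 and B6 mice for 16 members (edgeR, adjusted over all genes). The differences of 15 of them, 129 minus B6 on the log2 scale, were −5.66 for Ccr3, −4.79 for Ccl8, −4.47 for Ccl3, −3.38 for Ccr1, −2.91 for Ccr7, −2.69 for Cxcl14, −2.52 for Ccl9 and −2.5 for Ccl2. They were −2.07 for Ccl6, −1.63 for Cxcl16, −1.45 for Cxcr4, −1.17 for Ccl7, −1.1 for Ccr2, 1.16 for Cxcl9 and 3.69 for Cxcl11. Ccl3 and Ccr3 had few or no reads in several of these groups, so the size of their fitted differences depends on the prior count.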

How the results depend on the processing

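DESeq2 called 1 member for rosi in B6 iWAT (edgeR 0), 1 for rosi in B6 eWAT (edgeR 0) and 1 for diet in 129 eWAT (edgeR 2). Of all genes it called 1880, 30 and 2370 in these comparisons (edgeR 1689, 0 and 2657). Leaving out each library gave 0 to 2 called members for rosi in B6 iWAT, 1 to 7 for diet in B6 iWAT, 0 to 3 for diet in 129 eWAT and 3 to 5 for strain in eWAT on LFD. All genes called ran from 929 to 2542, 2072 to 3313, 1865 to 2679 and 3192 to 4323 in the same order. Over all genes, rosi in 129 iWAT gave 14 calls, 188 with DESeq2, 4 with the replicate block and 0 to 40 without 1 library. For rosi in B6 iWAT they were 1689, 1028 with the block and 929 to 2542 without 1 library, and for rosi in B6 eWAT 0, 30 with DESeq2 and 0 to 1 without 1 library. The difference between strains in the effect of rosi gave 14 calls, 79 with DESeq2, 1 with the block and 1 to 54 without 1 library.

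Values that changed sign belonged to members that did not pass in the fit without a block, though Cxcl13 in brown over inguinal fat passed with the replicate block. Ccl2 with rosi in B6 iWAT (0.02) was −0.13 with the replicate block and −0.59 to 0.21 without 1 library, and Cxcl12 with diet in the first B6 eWAT set (0) was 0.05 with no filter on low counts and −0.11 to 0.1 without 1 library. Without 1 library, Cxcl16 with rosi in F1 iWAT ran from −0.74 to 0.03 (0.03 without control replicate 1), Ccl2 with strain in eWAT on LFD from −0.46 to 0.14, Ccl6 there from −0.16 to 0.23, Cxcl9 with strain in eWAT on HFD from −0.43 to 0.18, Ccl6 with diet in B6 iWAT from −0.18 to 0.33 and Cxcl13 in brown over inguinal fat from −2.72 to 0.28. With diet in 129 eWAT, Ccr1 ran from −0.03 to 0.19, Ccr2 from −0.05 to 0.3, Cxcl10 from −0.32 to 0.11, Cxcl14 from −0.05 to 0.27 and Cxcl16 from −0.14 to 0.08. The causes were not tested.

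RLE scaling changed no call of a named result. Where replicate numbers did not pair samples by the correlation, the replicate block ended the calls of Cxcl10 with diet in the second B6 set (adjusted p = 0.052 with edgeR), Cxcr4 with diet in B6 iWAT (0.051) and Cxcl9 with strain in iWAT (0.053). With no filter on low counts, Ccl24 with strain in eWAT on HFD (adjusted p = 0.059 with edgeR), Ccl7 with strain in iWAT (0.053), Cx3cl1 with strain in eWAT on LFD (0.096) and Ccr10 with diet in the second B6 set (0.14) also missed the threshold. Libraries of 3099737 to 9551251 counts put members under about 1 CPM at a few reads a library, which limits the precision of their values.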
